A study of Mus musculus with 33 samples.

Results

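The Notch pathway was followed in embryonic mouse kidneys through 10 genes: the receptors Notch1, Notch2 and Notch3, the ligands Jag1 and Dll1, the receptor-modifying enzyme Lfng, and the target genes Hes1, Hes5, Hey1 and Heyl. The genes were chosen by symbol and all 10 were found among the 35349 gene symbols of the count table. Whole kidneys at embryonic day 11.5 (E11.5) came from embryos with intact Six2 (wild type, 6 specimens, 4 female and 2 male), with the Six2 label heterozygous (5 specimens, 2 female and 3 male) or with the label knockout (5 specimens, 4 female and 1 male). At E15.5 there were 4 wild-type and 4 heterozygous specimens, each with 1 female and 3 males. Six2 is the transcription factor that holds nephron progenitors in an undifferentiated state, and the series compares kidneys with fewer copies of it. The labels give the genotype without a description of the allele or strain, and do not say whether a specimen was 1 animal or a pool, and p-values therefore reflect specimen-to-specimen spread, which may be technical. RNA came from whole kidneys, so a level is that of all kidney cells together and not of early nephrons alone.

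Notch receptors are cut when a ligand on a neighbouring cell binds them. The released intracellular part joins the DNA-binding protein RBPJ and switches on target genes, among them the Hes and Hey repressors. In the kidney the pathway is known for the first steps of nephron formation, in which clusters of progenitors become epithelial vesicles and then comma- and S-shaped bodies; Notch2 is the receptor whose loss is known to block formation of the proximal nephron. The same pathway acts in blood vessels, where Notch3 and Heyl mark the smooth muscle and pericytes around them, and in the embryonic nervous system, where Dll1 and Hes5 are typical of dividing neural progenitors.

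Of the 10 genes, 7 had promoter entries in RefSeq (GRCm38.p6), with 8 promoters in all. The 250 bases before each start site were searched on both strands for GTGGGAA, the classical RBPJ sequence, and for the shorter TGGGAA, which lies within it. Of the 8 promoters, 2 held GTGGGAA, against 1779 of 32851 RefSeq mouse promoters (5.42%). TGGGAA was in the same 2 promoters, against 21.6% of all. The promoter of Hes5 held GTGGGAA at 2 places, 1 on each strand; matches on both strands were found in 18 of all promoters (0.0548%), and 2 or more on any strand in 0.161%. The promoter of Lfng held GTGGGAA on the plus strand and a separate TGGGAA on the minus strand. These sequences and that of Dll1 are shown because the genes rose most between the stages, Hes5 and Lfng with a match in this window and Dll1 without one. Capitals mark the matches, read as TTCCCAC or TTCCCA where the match is on the minus strand; the Lfng stretch ends where the GENCODE gene begins.
Hes5: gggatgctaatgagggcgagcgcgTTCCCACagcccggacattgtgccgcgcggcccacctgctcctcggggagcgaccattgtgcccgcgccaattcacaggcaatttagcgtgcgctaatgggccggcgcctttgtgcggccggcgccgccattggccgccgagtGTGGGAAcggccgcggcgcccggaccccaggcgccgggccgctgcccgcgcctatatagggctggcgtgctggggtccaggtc
Lfng: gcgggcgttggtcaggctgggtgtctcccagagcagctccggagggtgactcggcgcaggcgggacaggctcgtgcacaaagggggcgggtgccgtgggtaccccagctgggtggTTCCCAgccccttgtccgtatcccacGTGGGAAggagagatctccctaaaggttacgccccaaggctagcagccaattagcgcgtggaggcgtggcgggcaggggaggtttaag
Dll1: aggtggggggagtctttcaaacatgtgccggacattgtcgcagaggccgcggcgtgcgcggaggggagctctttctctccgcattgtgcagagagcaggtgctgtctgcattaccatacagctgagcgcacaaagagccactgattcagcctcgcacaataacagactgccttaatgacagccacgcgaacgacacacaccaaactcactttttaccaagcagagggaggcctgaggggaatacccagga
The Hes5 stretch is chr4:154960673-154960922 on the plus strand, the Lfng stretch is chr5:140607091-140607319 on the plus strand, and the Dll1 stretch is chr17:15376933-15377182 on the minus strand. A match in these letters is a description and was not tied to binding in these kidneys.

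The 33 libraries held 10819256 to 42073021 counts and were summed to 24 specimens. Six2 followed the labels: its level in knockouts was 1.97% of wild type at E11.5 (edgeR adjusted p = 7.92e-12). In heterozygotes it was 51.3% of wild type at E11.5 (edgeR adjusted p = 0.00418) and 52.5% at E15.5 (edgeR adjusted p = 5.23e-06). Ribosomal counts took 1.46% to 27.3% of the E11.5 libraries labelled batch 1 (21.3% to 27.3% in wild types, 4.19% to 19.4% in heterozygotes, 1.46% to 13.2% in knockouts) and 0.996% to 1.72% of all other libraries. Wild-type replicate 6 at E11.5 stood apart. In it 8 neural tube genes (Pax6, Sox3, Zic1, Neurog2, Lhx5, Dbx1, Pou4f1 and Rfx4) summed to 40.3 CPM (the usual library-scaled count unit, on TMM-scaled library sizes), against 0.185 to 1.59 in the other 15 E11.5 specimens. Another 6 genes typical of surface epidermis (Krt5, Krt14, Trp63, Trim29, Perp and Gjb2) summed to 166 CPM, against 0.89 to 10.5. Both lists were chosen after the data had been seen.

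**Figure D1:**
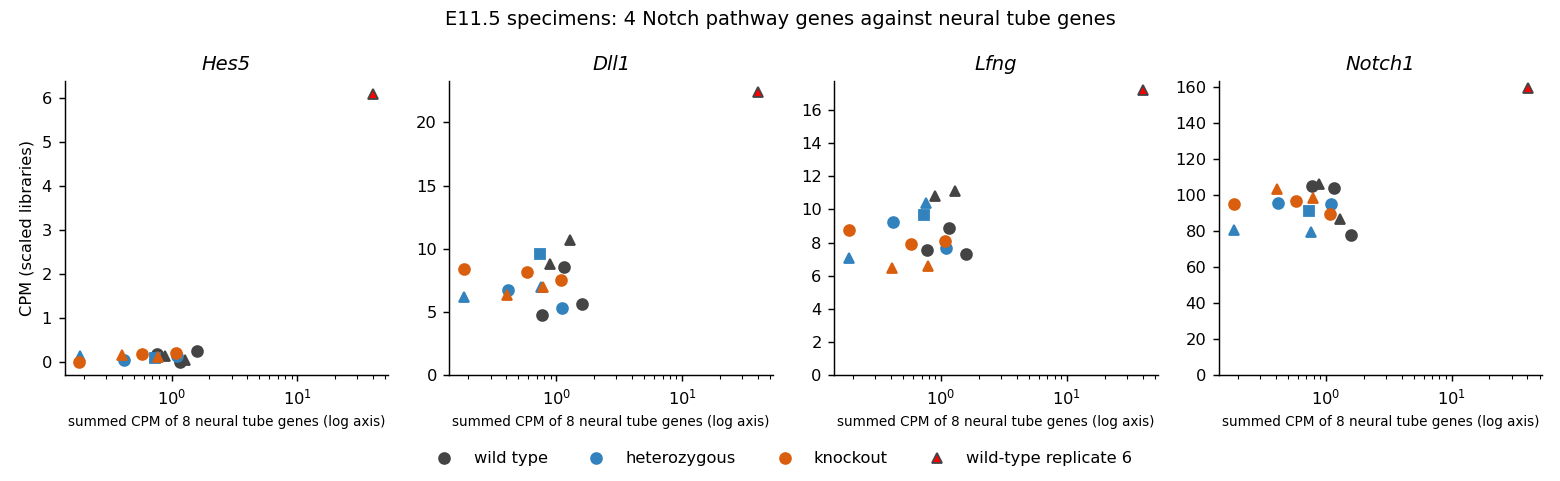
Each panel plots the level of a gene (CPM, linear axis) against the summed CPM of 8 neural tube genes (log axis) in the 16 E11.5 specimens, coloured by genotype, with circles for batch 1, triangles for batch 2 and a square for the specimen run in both. Wild-type replicate 6, in red, lies at 40.3 CPM of neural tube genes and above the other 15 specimens for Hes5, Dll1, Lfng and Notch1.

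In the same specimen 4 of the 10 Notch genes lay above every other E11.5 kidney. Hes5 was at 6.09 CPM against 0 to 0.265 in the other 15, which is 129 counts against 0 to 4. Dll1 was at 22.4 CPM against 4.81 to 10.7, Lfng at 17.2 against 6.45 to 11.1 and Notch1 at 159 against 77.5 to 106. The other 6 genes (Notch2, Notch3, Jag1, Hes1, Hey1 and Heyl) were within the range of the other specimens. Over all genes, 62 of 17362 exceeded 4 times the highest other E11.5 specimen there. The part of tissue other than kidney in these values was not tested. Values without this specimen are therefore given beside the main ones.

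**Figure D2:**
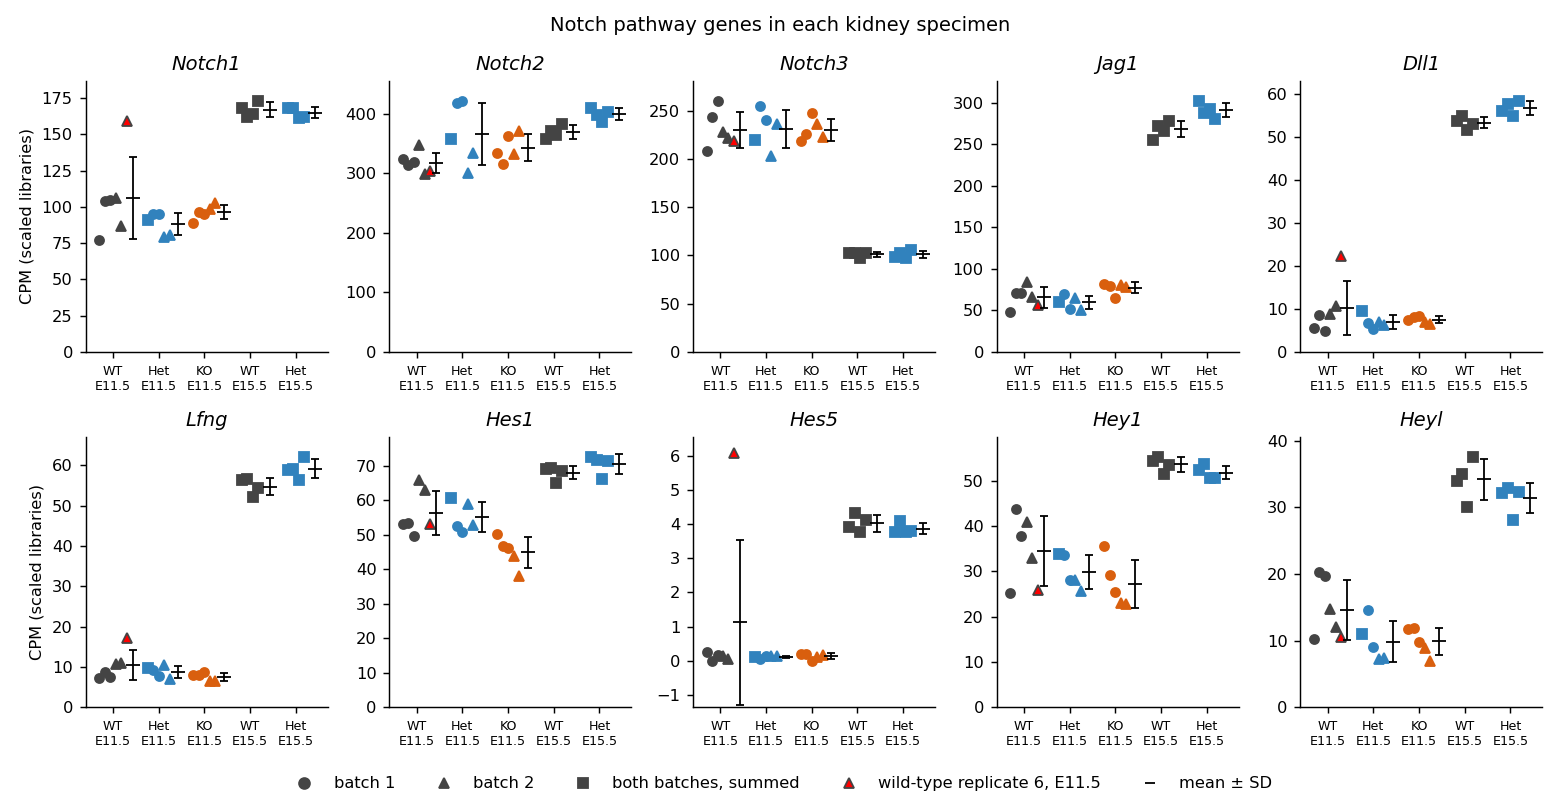
Each panel shows the level of a gene in CPM (linear axis) in every specimen of the 5 groups, with the mean and SD of the group beside the points; circles are batch 1, triangles batch 2, squares specimens whose runs in both batches were summed. Jag1, Dll1, Lfng and Heyl lie higher at E15.5 than at E11.5, Notch3 lies lower, and wild-type replicate 6 (red) lifts the E11.5 wild-type mean of Hes5, Dll1, Lfng and Notch1.

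At E11.5 the receptors Notch2 and Notch3 and the target Hes1 were the most abundant of the 10 genes when counts were set against the gene length given in the table (CPM per kb). In wild types these levels per length averaged 30.1 ± 1.63 for Notch2, 28.5 ± 2.31 for Notch3 and 27.6 ± 3.16 for Hes1 (SD, n = 6). Their ranges overlapped, so the order among them was not resolved. Jag1 (11.2 ± 2.18), Hey1 (10.5 ± 2.36) and Notch1 (7.46 ± 1.99) followed, again with overlapping ranges. Lfng (4.58 ± 1.60), Heyl (2.85 ± 0.876) and Dll1 (2.4 ± 1.5) were lower on average and overlapped. The range of Lfng (3.2 to 7.52) also overlapped that of Notch1 (5.43 to 11.2). Without replicate 6 these 2 ranges were apart (3.2 to 4.85 and 5.43 to 7.42). The averages were then 6.72 ± 0.907 for Notch1, 3.99 ± 0.777 for Lfng and 1.82 ± 0.577 for Dll1. Hes5 ranged from 0 to 0.194 CPM per kb in the 5 wild types without replicate 6. At E15.5 the order was different: Jag1 was highest at 45.8 ± 1.67 CPM per kb (n = 4), followed by Notch2 at 35.0 ± 1.06 and Hes1 at 33.3 ± 0.936, whose ranges met at 33.9. Lfng (23.9 ± 0.911) and Hey1 (16.4 ± 0.512) stood apart from their neighbours. Dll1 (12.6 ± 0.323), Notch3 (12.5 ± 0.346) and Notch1 (11.7 ± 0.359) had overlapping ranges, and Heyl (6.68 ± 0.606) and Hes5 (2.95 ± 0.177) were lowest.

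**Figure D3:**
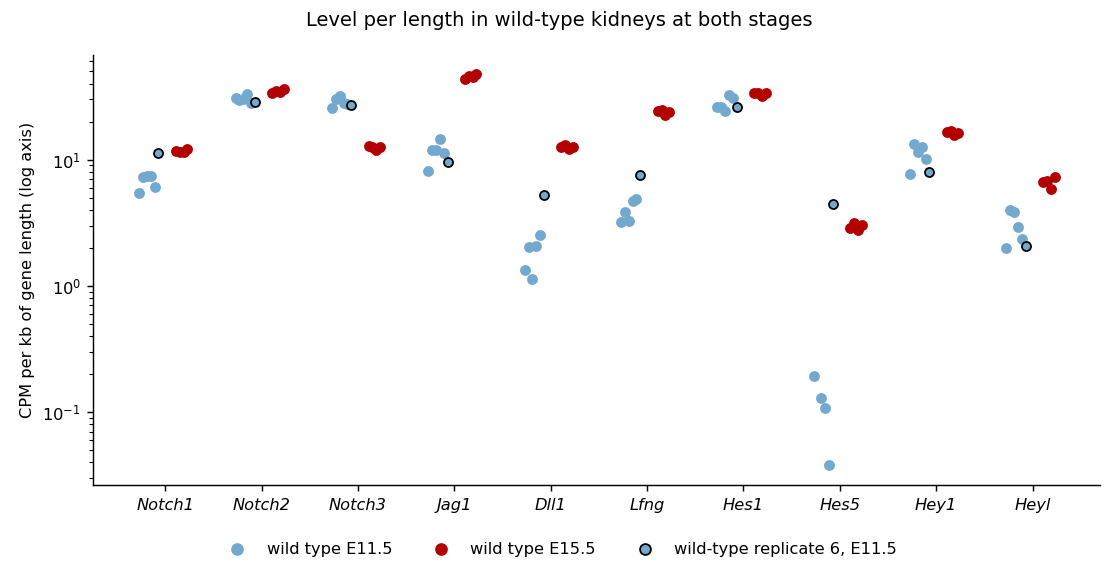
Levels per length (CPM per kb of gene length, log axis) of the 10 genes in the 6 wild-type kidneys at E11.5 (blue) and the 4 at E15.5 (red); replicate 6 has a black edge, and 1 E11.5 specimen with 0 Hes5 counts cannot be drawn on the log axis. Jag1 moves from 11.2 to 45.8 CPM per kb on average, while Notch3 moves from 28.5 to 12.5.

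Between E11.5 and E15.5 in wild-type kidneys, 9 of the 10 genes rose and Notch3 fell. The ligands, Lfng and Hes5 changed most. Of all 17362 genes tested, 66.1% were called between the stages (34% higher, 32.1% lower; 65.9% without replicate 6), so that a call by itself sets no gene apart here. The median log2 difference was 0.90 over the 10 genes and 0 over all genes tested. Levels of 8 of the 10 genes did not overlap between the stages, against 44.1% of all genes; Hes1 overlapped, and Hes5 overlapped through replicate 6. The labels number batches 1 and 2 at each stage but do not say whether a number stands for the same batch at both, so stage and batch cannot be told apart. Fits on the libraries of 1 batch number alone are therefore not comparisons within a shared batch. In whole-organ RNA, fewer cells of a type and less RNA per cell cannot be told apart either.

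Among the receptors, Notch3 (ENSMUSG00000038146, chr17:32120820-32166852, minus strand, mm10) was at 208 to 260 CPM in the E11.5 wild types (median 225) and at 103, 102, 97.0 and 102 CPM in the 4 E15.5 wild types. All E15.5 specimens were thus below all E11.5 specimens. Its log2 difference was -1.19 ± 0.06 (SE; edgeR adjusted p = 4.7e-14), and -1.20 without replicate 6. Notch1 (ENSMUSG00000026923, chr2:26457903-26516663, minus strand) was at 77.5 to 159 CPM at E11.5 (median 105) and at 168, 162, 164 and 173 CPM at E15.5. It rose by a log2 difference of 0.61 ± 0.12 (edgeR adjusted p = 9.29e-05), or 0.75 ± 0.06 without replicate 6. Notch2 (ENSMUSG00000027878, chr3:98013527-98150361, plus strand) moved from 298 to 347 CPM (median 316) to 357, 371, 364 and 383 CPM, a log2 difference of 0.17 ± 0.06 (edgeR adjusted p = 0.0163); the call was lost without E15.5 wild-type replicate 2 or E11.5 wild-type replicate 2, where the adjusted p reached 0.129. The balance of the receptors shifted accordingly. The ratio of Notch2 to Notch3 per length was 0.94 to 1.19 in E11.5 wild types (median 1.04) and 2.65 to 2.88 in E15.5 wild types (median 2.84).

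The ligand Jag1 (ENSMUSG00000027276, chr2:137081456-137116644, minus strand) was at 47.8 to 84.6 CPM at E11.5 (median 67.9) and at 255, 272, 266 and 278 CPM at E15.5. Its log2 difference was 1.98 ± 0.10, a 3.93-fold rise (edgeR adjusted p = 8.92e-14), or 1.94 without replicate 6, with 2.07 from the libraries numbered batch 1 and 1.86 from those numbered batch 2. Dll1 (ENSMUSG00000014773, chr17:15367354-15376872, minus strand), the other ligand, was at 4.81 to 22.4 CPM (median 8.7) and at 53.7, 55.0, 51.7 and 53.1 CPM. It rose 5.41-fold, a log2 difference of 2.44 ± 0.23 (edgeR adjusted p = 2.72e-09), or 2.75 ± 0.15 without replicate 6, with 3.04 and 1.95 from the libraries of each batch number. The ratio of Jag1 to Dll1 per length was 1.81 to 10.6 in E11.5 wild types and 3.44 to 3.79 at E15.5. The value of 1.81 was that of replicate 6. Without it the E11.5 wild types were at 4.41 to 10.6, above every E15.5 wild type. Lfng (ENSMUSG00000029570, chr5:140607320-140615545, plus strand) encodes a sugar transferase that acts on Notch receptors and changes how they respond to each class of ligand. It was at 7.33 to 17.2 CPM at E11.5 (median 9.85) and at 56.2, 56.5, 52.0 and 54.3 CPM at E15.5. The log2 difference was 2.41 ± 0.15 (edgeR adjusted p = 1.89e-12), or 2.57 ± 0.11 without replicate 6, with 2.82 and 2.02 by batch number.

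Hes5 (ENSMUSG00000048001, chr4:154960923-154962371, plus strand), a target repressor whose promoter is printed above, had 243, 210, 251 and 277 counts in the E15.5 wild types, or 3.77 to 4.32 CPM. In the 6 E11.5 wild types it had 3, 0, 3, 3 and 1 counts and, in replicate 6, 129 counts. Replicate 6 thus had a higher CPM than any E15.5 kidney, and the other 5 were near 0. The fitted log2 difference was 2.70 ± 0.66 with replicate 6 (edgeR adjusted p = 0.00107) and 5.04 ± 0.30 without it (edgeR adjusted p = 1.38e-12). As summed counts without replicate 6, 981 against 10, the rate was 33.1 times higher at E15.5 (95% interval 17.9 to 69.3, counting error only). From the libraries numbered batch 2, with replicate 6 included, the log2 difference of 1.28 did not pass the test (edgeR adjusted p = 0.178).

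Of the other targets, Heyl (ENSMUSG00000032744, chr4:123233556-123249875, plus strand) was at 10.2 to 20.3 CPM at E11.5 (median 13.5) and at 34.0, 35.0, 30.1 and 37.6 CPM at E15.5, a log2 difference of 1.19 ± 0.14 (edgeR adjusted p = 1.14e-07), or 1.16 without replicate 6. Hey1 (ENSMUSG00000040289, chr3:8663359-8667256, minus strand) was at 25.3 to 43.8 CPM (median 35.4) and at 54.3, 55.3, 51.4 and 53.5 CPM, a log2 difference of 0.59 ± 0.12 (edgeR adjusted p = 0.00011), or 0.54 without replicate 6. Both were higher in every E15.5 specimen than in any E11.5 wild type. Hes1 (ENSMUSG00000022528, chr16:30064384-30067796, plus strand) was at 49.7 to 66.0 CPM (median 53.4) and at 69.0, 69.3, 65.2 and 68.5 CPM. Its log2 difference of 0.28 ± 0.08 (edgeR adjusted p = 0.00299) was 0.26 without replicate 6. It was 0.47 from the libraries numbered batch 1 and -0.05 from those numbered batch 2 (edgeR adjusted p = 0.655), so the direction did not hold in both.

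Markers of other cells moved with the stage as well. Of 17 early nephron genes 16 were called higher at E15.5, with Sox9 lower, and their summed level was 287 to 478 CPM in E11.5 and 1110 to 1200 CPM in E15.5 wild types. Of 15 endothelial genes 12 were called higher (450 to 969 CPM, then 1190 to 1240). Of 10 genes of vessel-wall cells 5 were higher and 2 lower (693 to 1010 CPM, then 931 to 965), and of 12 neural genes 10 were lower (66.7 to 185 CPM, then 22.9 to 26.5). Of 14 ureteric bud genes 11 were higher (448 to 772 CPM, then 984 to 1040), and of 10 podocyte genes 6 were higher and 2 lower (996 to 1540 CPM, then 1460 to 1550). Calls went both ways among 15 nephron progenitor genes (4 higher, 7 lower), 9 macrophage genes (2 and 2) and 10 stromal genes (4 and 4). No gene of these 9 lists was at 0 in every wild-type specimen. The part of these cells in the Notch gene differences was not tested.

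In knockout kidneys at E11.5, 2 of the 9 Notch genes that could be tested were called against wild type, and both were targets: Hes1 and Heyl fell. Of all 16141 genes tested 7.09% were called (4.03% lower, 3.06% higher; 5.86% without replicate 6). None of the 9 genes had ranges that did not overlap, against 3.23% of all genes. The median log2 difference was -0.32 over the 9 genes, or 0 without replicate 6, and 0 over all genes tested either way. The receptors, ligands and Lfng did not pass the test. Hes5 was too low to be tested, with 0 to 4 counts in each knockout.

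Hes1 was at 50.3, 46.9, 46.1, 43.9 and 38.1 CPM in the 5 knockouts and at 49.7 to 66.0 CPM in the 6 wild types (median 53.4). Of the 5 knockouts, 4 were below the lowest wild type, and the groups overlapped through 1 knockout. Fitted over all specimens, the log2 difference was -0.32 ± 0.09, 80% of the wild-type level (edgeR adjusted p = 0.0328), and -0.35 ± 0.09 without replicate 6 (0.0296). It was -0.10 ± 0.07 within batch 1 (edgeR adjusted p = 0.54) and -0.57 ± 0.12 within batch 2 (0.0772), or -0.65 ± 0.11 in batch 2 without replicate 6 (0.0185). The call held in 7 of 11 fits that each left out a specimen, and was lost without wild-type replicate 5 or knockout replicate 3, 4 or 5, where the adjusted p reached 0.224. It was also lost with no batch term (0.0798), without the libraries over 5% ribosomal counts (0.0849) and with the letter-and-number prefix of the sample titles in place of batch (0.367). Hes1 had a negative difference in each of these fits.

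Heyl was at 11.8, 11.9, 9.86, 8.97 and 7.03 CPM in the knockouts and at 10.2 to 20.3 CPM in the wild types (median 13.5), with overlapping ranges. It differed by -0.57 ± 0.17 on the log2 scale, 67.4% of wild type (edgeR adjusted p = 0.0469). Without replicate 6 it was -0.60 ± 0.17 and no longer passed the test (0.0514). The call held in 1 of 11 fits that left out a specimen (wild-type replicate 1), the adjusted p reaching 0.234 in the others, and it was lost with no batch term, with the title prefix in place of batch and without the libraries over 5% ribosomal counts. The log2 difference was -0.44 within batch 1 and -0.64 within batch 2, neither called. Hey1 was at 35.6, 29.2, 25.5, 23.1 and 22.8 CPM in the knockouts and at 25.3 to 43.8 CPM in the wild types. Its log2 difference of -0.33 ± 0.13 did not pass the test (edgeR adjusted p = 0.166), nor without replicate 6 (-0.38, 0.119), although it did without wild-type replicate 1 (-0.44, 0.0387). Hey1 also passed within batch 2 without replicate 6 (edgeR adjusted p = 0.0216), a fit in which Heyl was not called.

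None of the receptors passed the test in knockouts. Notch3 had a log2 difference of 0 (95% interval -0.12 to 0.12; edgeR adjusted p = 0.998) and Notch2 one of 0.13 (0.01 to 0.25; 0.213), or 0.14 without replicate 6. Notch1 gave -0.12 (-0.40 to 0.16; edgeR adjusted p = 0.67) with replicate 6 and 0.05 (-0.09 to 0.19; 0.773) without it. The ligand Jag1 was at 81.2, 79.7, 65.4, 80.5 and 78.0 CPM in the knockouts and 47.8 to 84.6 CPM in the wild types, a log2 difference of 0.27 ± 0.11 (edgeR adjusted p = 0.188), or 0.22 (0.319) without replicate 6. Dll1 gave -0.35 (-0.98 to 0.28; edgeR adjusted p = 0.57) with replicate 6 and 0.00 (-0.44 to 0.43; 0.997) without it. Lfng gave -0.45 ± 0.20 (edgeR adjusted p = 0.207) and, without it, -0.27 ± 0.16 (0.4). For Dll1 and Lfng the direction differed between the batches as well: Dll1 gave 0.63 within batch 1 and -1.04 within batch 2 (-0.55 there without replicate 6), and Lfng gave 0.15 and -0.98 (-0.75 without it), none of them called.

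Of 17 other early nephron genes, 4 were called higher in the same knockouts, none lower, and 13 did not pass the test. Called higher were Wnt4 (log2 difference 0.87), the signal that starts the conversion of progenitors to epithelium, the transcription factor gene Pax8 (0.91), the cadherin gene Cdh6 (0.94) and the cyclin gene Ccnd1 (0.31). The summed level of the list was 393 to 532 CPM in knockouts and 287 to 478 CPM in wild types, or 287 to 360 CPM without replicate 6, where 5 of 17 were called higher. Other markers moved too. Of 15 nephron progenitor genes 12 were called lower (456 to 581 CPM in knockouts, 1070 to 1610 in wild types). All 9 macrophage genes tested were called higher, or 7 of 9 without replicate 6 (104 to 230 CPM, against 70.7 to 140). Calls went both ways among 13 ureteric bud genes tested (3 higher, 3 lower) and 10 stromal genes (1 and 1). Of 12 neural genes 1 was called higher (129 to 178 CPM, against 66.7 to 185). For blood vessels, 1 of 15 endothelial genes (Ramp2) was lower, with sums of 697 to 867 CPM against 450 to 969, and among 10 vessel-wall genes Des was lower and Rgs5 higher, with sums of 839 to 900 CPM against 693 to 1010. In the early nephron, nephron progenitor, macrophage, neural, endothelial and vessel-wall lists no gene was at 0 in every knockout or in every wild type. The part of these cells, and of the unequal ribosomal share, in the differences of Hes1 and Heyl was not tested.

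**Figure D4:**
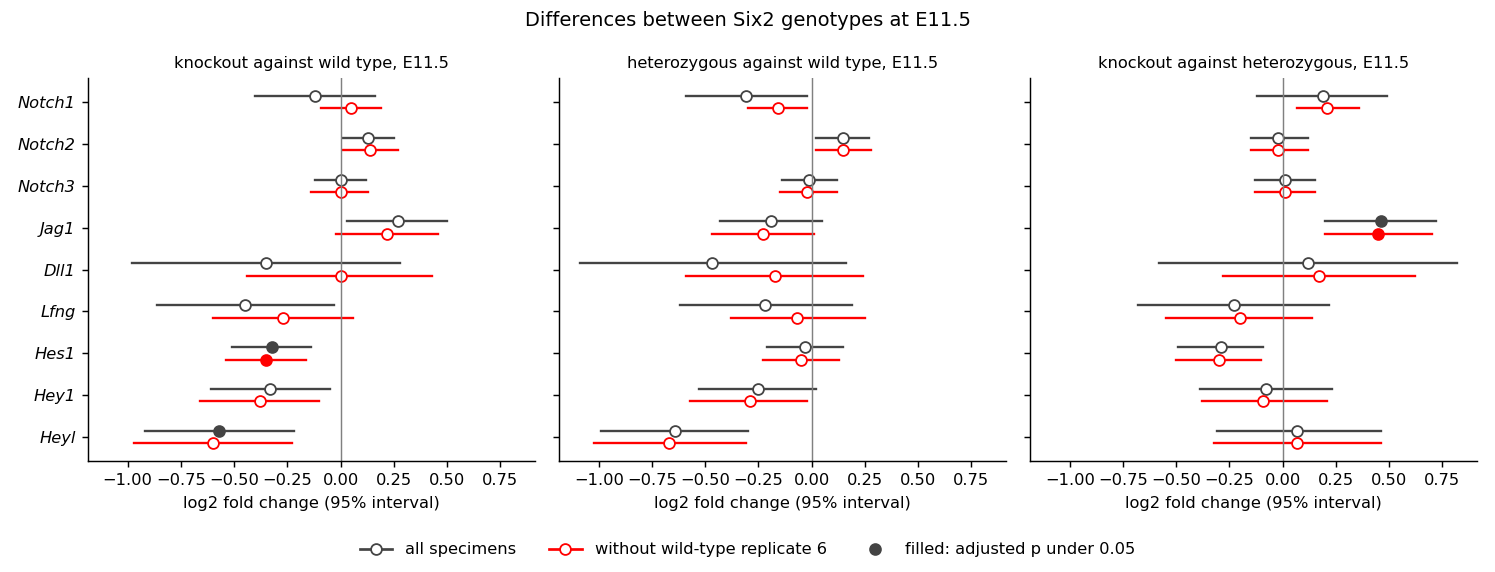
Log2 fold changes (points) with 95% intervals (lines) of the 9 genes tested in the 3 genotype comparisons at E11.5, with all specimens (dark) and without wild-type replicate 6 (red); filled points have an adjusted p under 0.05. Hes1 and Heyl lie below 0 in knockout against wild type, with an open point for Heyl once replicate 6 is left out; Heyl has a like value of -0.64 in heterozygotes but an open point, and Jag1 lies above 0 in knockout against heterozygous.

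In heterozygous kidneys at E11.5, none of the 9 genes was called against wild type by edgeR, where 0.0681% of all genes were (0.0748% without replicate 6). DESeq2 called Heyl, with 43 of 16141 genes called in all. By edgeR 3 of the 9 had an unadjusted p under 0.05, and the share of all genes under that threshold was not computed. Heyl was at 11, 14.6, 9, 7.19 and 7.38 CPM in the heterozygotes, below the wild-type median of 13.5 in 4 of 5. The log2 difference was -0.64 ± 0.16 (95% interval -0.99 to -0.30; edgeR adjusted p = 0.328, DESeq2 adjusted p = 0.0477), and -0.67 without replicate 6. Notch1 was at 91.1, 95.4, 94.8, 79.2 and 80.6 CPM, a log2 difference of -0.31 ± 0.13 (edgeR adjusted p = 0.578) that became -0.16 ± 0.07 (0.581) without replicate 6. Notch2 was at 358, 417, 421, 300 and 334 CPM, a log2 difference of 0.15 ± 0.06 (edgeR adjusted p = 0.557), the same without replicate 6. Hes1, which fell in knockouts, was at 60.6, 52.5, 51.0, 58.9 and 52.9 CPM and had a log2 difference of -0.03 (-0.21 to 0.15; edgeR adjusted p = 0.947). The other genes had log2 differences from -0.47 for Dll1 (-0.17 without replicate 6) to -0.01 for Notch3. These 2 comparisons share the wild-type kidneys, and their values are set side by side only.

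Knockout kidneys were also set against heterozygous ones. Jag1 alone of the 9 genes was called, and it was higher in knockouts; 3.69% of all genes were called, 0.892% higher and 2.79% lower (4.45% without wild-type replicate 6). Its heterozygous values were 60.6, 69.2, 51.6, 65.4 and 50.5 CPM, against 65.4 to 81.2 CPM in the knockouts, where replicate 3 was the low one and the other 4 were at 78.0 to 81.2. The log2 difference was 0.46 ± 0.12, a 1.37-fold higher level (edgeR adjusted p = 0.0491). Without wild-type replicate 6, which enters through the shared spread, it was 0.45 (0.0406). Within batches it was 0.55 and 0.42, neither called. The call held in 1 of 10 fits that left out a heterozygous or knockout specimen (heterozygous replicate 4), the adjusted p reaching 0.165, and in 3 of 13 other fits, all with the same direction. Hes1 was lower in every knockout than in any heterozygote (50.3 CPM at most against 51.0 at least); the ranges of 4.13% of all genes did not overlap in this comparison. Its log2 difference of -0.29 ± 0.09 was not called by edgeR (adjusted p = 0.103) and was called by DESeq2 (0.0325). Heyl did not differ detectably, at 0.07 (-0.31 to 0.46; edgeR adjusted p = 0.875).

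At E15.5, none of the 10 genes was called in heterozygous against wild-type kidneys by edgeR, where 0.57% of all genes were. DESeq2 called Notch2 (adjusted p = 0.0386), with 155 of 18244 genes called in all. By edgeR 4 of the 10 had an unadjusted p under 0.05, and the share of all genes under that threshold was not computed. Standard errors of the log2 differences were small at this stage, from 0.02 for Notch1 to 0.07 for Hes5. Notch2 was at 409, 398, 386 and 403 CPM in heterozygotes and at 357, 371, 364 and 383 CPM in wild types, a log2 difference of 0.11 ± 0.03 (edgeR adjusted p = 0.168). Jag1 was at 302, 288, 293 and 281 CPM against 255, 272, 266 and 278, also 0.11 ± 0.03 (edgeR adjusted p = 0.218). Dll1 was at 56.2, 57.8, 55.0 and 58.4 CPM against 53.7, 55.0, 51.7 and 53.1, a log2 difference of 0.08 ± 0.03 (edgeR adjusted p = 0.285). In these 3 genes every heterozygous value was above every wild-type value before rounding; ranges did not overlap, in either direction, in 5.13% of all genes. Lfng, at 58.8, 59.1, 56.4 and 62.1 CPM against 56.2, 56.5, 52.0 and 54.3, had a log2 difference of 0.10 ± 0.03 (edgeR adjusted p = 0.235) with ranges that just overlapped. The intervals of the 4 targets all held 0: Hes1 gave 0.05 (-0.02 to 0.11), Hes5 -0.06 (-0.22 to 0.09), Hey1 -0.06 (-0.12 to 0.01) and Heyl -0.13 (-0.27 to 0.01). The summed level of the early nephron list was 1180 to 1250 CPM in heterozygotes and 1110 to 1200 CPM in wild types, and its part in the ligand values was not tested.

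The heterozygous effect itself was compared between the stages. For none of the 10 genes did the difference of effects pass the test by edgeR, where 0.00576% of all genes did, and DESeq2 called none. By edgeR 2 of the 10 had an unadjusted p under 0.05, and the share of all genes under that threshold was not computed. Heyl gave 0.49 ± 0.20 (edgeR adjusted p = 1), with lower values at E11.5 than at E15.5. Without replicate 6 Heyl gave 0.52. Dll1 gave 0.57 (-0.10 to 1.25) with replicate 6 and 0.23 (-0.19 to 0.66) without it. Jag1 gave 0.29 (0 to 0.59), or 0.34 without it, and Notch2 -0.05 (-0.23 to 0.12). Hes5 gave 3.06 (0.76 to 5.36) with replicate 6 and 0.06 (-1.08 to 1.19) without it, so that its value came from that specimen.

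The rest of the pathway was read from 45 further Notch genes, all present in the table and 41 of them testable at E11.5. In knockout against wild-type kidneys 3 of 41 were called, all lower, which is 7.32% against 7.09% of all genes. Dtx1, a ubiquitin ligase gene of the Deltex family and a known Notch target in other tissues, was at 6.76 to 12.1 CPM in knockouts and 11.2 to 22.8 CPM in wild types, with overlapping ranges and a log2 difference of -0.92 ± 0.15 (edgeR adjusted p = 0.000907; -0.88 without replicate 6). Hes6, which counteracts Hes1, gave -0.42 ± 0.09 (edgeR adjusted p = 0.00699). Adam10, the protease that makes the first cut of the bound receptor, gave -0.25 ± 0.06 (edgeR adjusted p = 0.0169). Hes6 was at 27.2 to 36.8 CPM in knockouts and 30.2 to 62.8 CPM in wild types, with overlapping ranges. Adam10 was at 89.3 to 156 CPM in knockouts, within the wild-type range of 89.2 to 217 CPM. All 3 genes were called without replicate 6 and by DESeq2. Dtx1 lost its call within batch 1 and with the title prefix in place of batch. Hes6 lost it with no batch term, within either batch, without knockout replicate 5 (adjusted p = 0.0683) and with the title prefix, where its log2 difference was 0.04. Adam10 lost it with no sex term, with no batch term, within batch 2, without the libraries over 5% ribosomal counts and without knockout replicate 3 (adjusted p = 0.055). The median over the 41 genes was -0.03, against 0 over all genes. In heterozygous against wild-type kidneys neither edgeR nor DESeq2 called any of the 41 at E11.5 (4 had an unadjusted p under 0.05 by edgeR) or of 43 at E15.5 (5 did). In knockout against heterozygous kidneys edgeR called none (7 had an unadjusted p under 0.05). DESeq2 called Dtx1 and Adam10 there, both lower, with 1015 of 16141 genes called in all. The share of all genes with an unadjusted p under 0.05 was not computed for any of these comparisons.

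Between the stages 24 of the 41 were called, 9 higher and 15 lower, a share of 58.5% against 66.1% of all genes. The ligand gene Dll3 fell most, from 1.24 to 9.72 CPM (median 2.66) at E11.5 to 0.0892 to 0.256 CPM at E15.5, a log2 difference of -4.01 ± 0.47 (-3.62 without replicate 6). Neurl1b, a ubiquitin ligase for ligands, rose by 1.82 ± 0.09, the feedback inhibitor gene Nrarp by 1.16 ± 0.21 and the endothelial ligand gene Dll4 by 0.92 ± 0.19. The corepressor gene Spen (-0.65 ± 0.11), the coactivator gene Maml1 (-0.68 ± 0.09) and the Deltex gene Dtx2 (-0.65 ± 0.06) fell. The largest edgeR adjusted p among the genes named here was 0.000235, for Dll4. Rbpj was among the other genes called lower, at a log2 difference of -0.30 ± 0.04 (edgeR adjusted p = 5.08e-07). Its wild-type ranges overlapped, at 39.9 to 70 CPM at E11.5 (43.5 to 70 without replicate 6) and 42.7 to 45.8 CPM at E15.5.

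The genes whose levels ran most alike with each of the 9 tested members were taken over the 16 E11.5 specimens. The measure was Pearson's r of log2 CPM after batch and sex were regressed out. These specimens share batches and include all 3 genotypes, so the values are descriptions. They are the highest among all genes tested, and the height that chance gives to such a pick was not computed. Heyl ran with Nipal4 (0.85), Hey1 (0.84) and Mtus2 (0.84), and without replicate 6 with Ltbp4 (0.93), Jag2 (0.90) and Cspg4 (0.89). Hey1 ran with Cyr61 (0.92, or 0.93 without replicate 6), Adamts15 (0.90) and Mmp17 (0.89). Hes1 ran with Syde2 (0.89), Msmo1 (0.89) and Itga9 (0.88). Jag1 ran with Mbnl2 (0.86), Gbp3 (0.84) and Fam43a (0.84), Notch2 with Zfp174 (0.82), Cnnm4 (0.81) and Jrk (0.80), and Notch3 with Lrrc42 (0.89), Gm8394 (0.84) and Glrx5 (0.80). The 3 nearest genes of Notch1, Dll1 and Lfng, like those of Heyl, were all replaced when replicate 6 was left out. Notch1 went from Fabp7 (0.94), Brsk2 (0.93) and Tgm1 (0.93) to Gm26881 (0.84), Crim1 (0.83) and Dusp8 (0.82). Dll1 went from Tnfaip2 (0.92), Hspb1 (0.92) and Irx2 (0.86) to Pla2g16 (0.90), 4632428N05Rik (0.86) and Mvp (0.85). Lfng went from Morc4 (0.94), Igfbp2 (0.90) and Limk2 (0.86) to Parp11 (0.92), F2r (0.88) and Lsm11 (0.88).

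Some values carry a limit of the counting. Whether reads were assigned by strand was not given in the sources used here. Notch1, Notch3, Dll1 and Hes5 each share exon bases with a gene on the other strand that is also in the table (0610009E02Rik and Gm13568, Gm17276, A930024N18Rik, and Gm20421). Whether reads in the shared bases were kept apart, mixed or left out is therefore not known.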

How the data were processed

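The authors deposited whole-number read counts per gene symbol for 33 libraries; per the submitters' processing notes, STAR 2.4.0h1 and featureCounts 1.4.6 were used with mm10. Their annotation, strandedness and multimapping settings are not given in the sources used here. Libraries of 1 specimen were summed, giving 24 specimens. Genes were filtered with filterByExpr (minimum count 10, total 15), scaled by TMM and tested with edgeR 4.0.16 (R 4.3.3) quasi-likelihood F tests with Benjamini-Hochberg adjustment over all genes tested; calls had an adjusted p under 0.05. At E11.5, genotype was fitted with terms for sex and for batch (as labelled, equal to the repeat number of the titles); at E15.5, with sex; between stages, the 5 groups were fitted with sex and E11.5 batch. CPM used TMM-scaled library sizes; levels per kb used the deposited gene length. The tests were checked on simulated counts without batch, sex or ribosomal differences, so that check does not cover them. The genes and gene lists were chosen with earlier results of these data known. Genes named beyond the members followed a rule on list, call and size of change, and 1 gene it selects is not reported here; the alternatives, DESeq2 1.42.0 among them, are in the closing section. Depth was 10819256 to 42073021 counts per library; intervals on counts cover counting error only.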

Additional observations from a re-analysis of the deposited data

Results flagged for a closer look

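In 6 of 50 combinations of gene and group, the highest or lowest specimen was flagged by Dixon's criterion. It sets the gap to the nearest value against the range of the group, so a small gap can be flagged. Chance gives about 1 in 20 for a combination taken alone, and flags in the same specimen are not independent. In all, 3 were in E11.5 wild-type replicate 6: Notch1 at 159 CPM (nearest other wild type 106), Dll1 at 22.4 CPM (10.7) and Hes5 at 6.09 CPM (0.265). Jag1 was at 65.4 CPM in E11.5 knockout replicate 3, with the nearest knockout at 78.0 CPM. Hes5 was at 4.11 CPM in E15.5 heterozygous replicate 2, a small gap from the others of that group, which lay close together at 3.78 to 3.81 CPM. Heyl was at 28.1 CPM in E15.5 heterozygous replicate 3 (nearest 32.2).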

How the results depend on the processing

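The number of Notch genes called in knockout against wild type, 2 as reported, was 0 with no replicate block (439 genes called in all, against 1144). It was also 0 within batch 1 alone, within batch 2 alone, without the libraries over 5% ribosomal counts and with the title prefix as the block. With the batch 2 run alone of the heterozygous specimen run in both batches it was 1. Without both the libraries over 5% ribosomal counts and the sixth wild type it was also 1. Within batch 2 without the sixth wild type it was 2, with Hey1 called in place of Heyl. Leaving out 1 specimen at a time gave 0 to 3. In knockout against heterozygous kidneys, 1 as reported became 2 with DESeq2 and 0 with RLE scaling, no sex term, no replicate block, either batch alone, the batch 2 run alone, the title prefix or without the libraries over 5% ribosomal counts, with or without the sixth wild type; leaving out 1 specimen gave 0 to 1. DESeq2 called 1 gene in heterozygous against wild type at E11.5 and 1 at E15.5, against 0 as reported. The stage comparison called 8 to 10 genes in all fits. Among the genes called as reported and followed in these fits, directions turned for Hes1 between stages with batch 2 libraries alone (-0.05, or -0.11 without the sixth wild type), Adam10 between stages with batch 1 libraries alone (-0.02) and Hes6 in knockouts with the title prefix as the block (0.04). Genes that were not called also turned in some fits, Dll1 and Lfng in knockouts among them. The causes were not tested. At E15.5 the replicate numbers did not pair the specimens (correlations 0.156, -0.136, 0.427 and -0.22); with the replicate block the count stayed at 0 (86 genes in all, against 104). Over all genes, calls in knockout against heterozygous kidneys went from 595 to 1015 with DESeq2 and 154 with no replicate block, and in heterozygous against wild type at E11.5 from 11 to 43 with DESeq2 and 32 with no filter on low counts. Hes5 had 0 to 4 counts in every E11.5 specimen other than wild-type replicate 6, too few to pass the count filter at that stage.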
